A study of Mus musculus with 2 samples.

Results

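The cells described here are ILC1-like cells of the mouse liver, in single-cell RNA libraries of hepatic mononuclear cells from mice with and without MC38 tumors in the liver. They were chosen by unique molecular identifier (UMI) counts of marker genes, among barcodes in which 200 or more genes were detected and mitochondrial genes took no more than 20% of UMIs. A member had at least 1 UMI of Ncr1 or Klrb1c, at least 1 UMI of Cxcr6 or Itga1, no UMI of Eomes, Klra4 or Klra8, at most 1 UMI of Cd3d, Cd3e and Cd3g together, and no UMI of Csf1r, Cd79a or Siglech. This rule found 79 cells in the control library and 48 in the MC38 library, 127 of the 34080 barcodes in all.

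Both libraries came from livers of C57BL/6 mice taken on day 14, pooled 3 mice each, and, per the labels, were made with a 10x Genomics 5′ kit after density centrifugation. In the control group, labelled as having no tumor, PBS was injected into the spleen. In the MC38 group, 500000 MC38 cells, a mouse colon adenocarcinoma line, were injected into the spleen, and the spleen was then removed. The protocol text attached to both groups also names 3000000 MC38 cells given under the skin and the removal of the spleen, and the labels do not settle whether control mice had either. With 1 library per group there is no replicate of the treatment, so differences between the libraries have no test, and their intervals cover counting error only.

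Type 1 innate lymphoid cells (ILC1s) are lymphocytes without rearranged antigen receptors that reside in tissues, and the liver is one of the organs where they were first described. Like conventional natural killer (NK) cells they carry the receptors NKp46 (Ncr1) and NK1.1 (Klrb1c) and make interferon gamma under the control of the transcription factor T-bet. ILC1s are held in the liver sinusoids and are marked by CD49a (Itga1), CXCR6 and the death ligand TRAIL (Tnfsf10), whereas circulating NK cells depend on Eomes, express Ly49 receptors of the Klra family and are rich in perforin and granzyme A.

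The control library held 14258 barcodes and 91617457 UMIs (median 5470.5 per barcode), and the MC38 library 19822 barcodes and 114421875 UMIs (median 3141.5). Mitochondrial genes took more than 20% of UMIs in 43.1% of control and 11.4% of MC38 barcodes, so that 8086 and 17338 barcodes were kept. The libraries shared 63 barcodes, none of them a member. Doublet calls covered 4.36% of control and 8.83% of MC38 barcodes, and among members 0 and 4 cells.

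Members had a median of 5352 UMIs and 1976 genes in the control library and 5333 UMIs and 2062 genes in the MC38 library, with 869 to 14271 and 1406 to 19225 UMIs per cell. In sum they held 450471 and 305822 UMIs. Depth per member was therefore similar in the libraries, but the mitochondrial share was not. Its median was 11.9% in control and 6.80% in MC38 members, and 51 of 79 against 12 of 48 members lay above 10%.

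The genes of the rule are given as a description. In CPM (counts per 1000000 UMIs of the summed cells), Ncr1 stood at 844 in control members, with a UMI in 76 of 79 cells, and at 507 in MC38 members, in 42 of 48 cells. Klrb1c stood at 622 in 73 control cells and 549 in all 48 MC38 cells. Cxcr6, the receptor for CXCL16, stood at 468 CPM in 74 control cells and 337 CPM in 38 MC38 cells, and Itga1, a collagen-binding integrin chain, at 115 CPM in 35 cells and 141 CPM in 28 cells. Most members were thus taken in by Cxcr6: 44 control and 20 MC38 members had Cxcr6 without Itga1, 5 and 10 had Itga1 without Cxcr6, and 30 and 18 had both.

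Members near the limits of the rule looked as follows. The 21 control and 10 MC38 members with just 1 UMI of Cxcr6 or Itga1 held Tmem176b at 385 and 223 CPM. Among the 55 and 56 cells just outside, with no UMI of these genes, of Eomes or of the 2 Klra genes, it stood at 126 and 181 CPM. Il7r stood at 137 and 27.9 CPM just inside against 50.3 and 121 CPM just outside, and Tnfsf10 at 120 and 41.8 CPM against 46.1 and 50.3 CPM, so in the MC38 library both were higher outside. Gzma stood at 2548 and 9170 CPM just inside against 7170 and 7369 CPM just outside. A Cd3 sum of 1 was found in 12 control and 6 MC38 members, and 15 and 6 cells lay just outside with a sum of 2. Raising the mitochondrial limit from 20% to 25% would have added 21 control cells and 1 MC38 cell.

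The label was checked against genes that the rule did not use. Trac, the constant region of the T cell receptor alpha chain, stood at 4.44 CPM in control members (2 cells) and 9.81 CPM in MC38 members (3 cells). In cells with at least 3 Cd3 UMIs and no UMI of Ncr1 or Klrb1c (the T gate) it stood at 300 and 325 CPM. In the 15 and 6 cells just outside the rule with a Cd3 sum of 2 it stood at 146 and 53.6 CPM. T cells with at least 2 Cd3 UMIs and a UMI of Ncr1 or Klrb1c (1055 and 162 cells) are not in the T gate, and their levels are not given here. Cd4 had no UMI in any member and Cd8a stood at 0 and 6.54 CPM. Of the 13 markers of ILC2s and ILC3s, 11 had no UMI in any member; the others were Gata3 (109 and 65.4 CPM) and Kit (26.6 and 9.81 CPM). Trbc1 stood at 701 and 474 CPM in members and 1302 and 1222 CPM in the T gate, without the Trac that αβ T cells carry. Trbc2 stood at 582 and 350 CPM, in 59 of 79 and 28 of 48 members. In the NK gate, described below, it stood at 192 and 170 CPM, and edgeR called it higher in members (log2 1.33, edgeR adjusted p = 0.0408). The 13 T cell markers summed to 1474 and 925 CPM in members and 689 and 733 CPM in the NK gate. One MC38 member held 230 of the 236 UMIs of the neutrophil gene S100a9.

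The T cell receptor gamma constant gene Tcrg-C4 was higher in members than in NK-gate and T-gate cells. It stood at 255 CPM in control and 131 CPM in MC38 members, 2.36 and 3.50 CPM in NK-gate cells and 46.3 and 26.6 CPM in the T gate. T cells with Ncr1 or Klrb1c are in neither of those gates, and the members were not set beside them. The delta constant gene Trdc ran the other way, with 4.44 and 13.1 CPM in members and 91.5 and 67.7 CPM in NK-gate cells. The members therefore carried gamma chain RNA with next to no Trdc and few Cd3 UMIs, the latter limited by the rule. In edgeR's quasi-likelihood test Tcrg-C4 was higher in members by 6.15 on the log2 scale (SE 0.40, adjusted p = 0.00429). Here and below, the SE was worked back from the test as the size of the log2 ratio over the square root of F. It is no spread measured over replicates.

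To set the members beside conventional NK cells, the cells with Ncr1 or Klrb1c and the same limits on T, B and myeloid genes were divided into 4 gates. Members form the ILC1 gate. The NK gate has Eomes, Klra4 or Klra8 and neither Cxcr6 nor Itga1 (346 control and 172 MC38 cells, median 4145.5 and 4192.5 UMIs). The double gate has genes of both sides (11 and 14 cells), and the neither gate has none (55 and 56 cells). Double-gate cells were left out of the comparison.

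UMIs were summed per library and gate, and edgeR compared the ILC1 with the NK gate across both libraries, with the library as a block and 1 residual degree of freedom; genes of the rule were not tested. A gene passed at a Benjamini-Hochberg adjusted p below 0.05. Of 6882 genes, 62 were higher (0.901%) and 44 lower (0.639%) in the ILC1 gate. They include S100a8, with 137 of its 140 UMIs in MC38 members in a single cell. The hemoglobin gene Hbb-bs is also among them (94.8 CPM in MC38 members, 1984 in the NK gate). Without the MC38 member rich in neutrophil RNA, 52 were higher and 42 lower. The test favours genes on which the libraries agree, and all 106 differed in the same direction in each library. DESeq2 also called 65 of them; of the genes named below as higher or lower it did not call Tmem176a (adjusted p = 0.163), Klrc1 (0.0649), Srgn (0.0599), Maf (0.405), Itga2 (0.397), Klra1 (0.277), Cd247 (0.220) and Cma1 (0.115). Genes that vary with the rule's genes were bound to differ between the gates, so this describes how the gates differ and does not show that there are 2 kinds of cell.

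**Figure D1:**
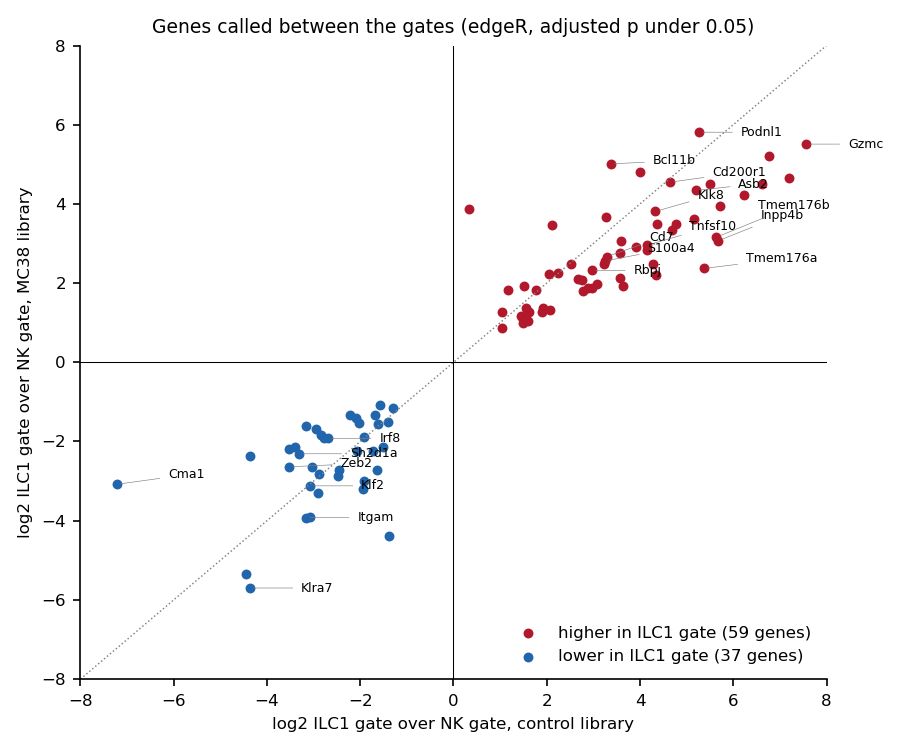
Log2 ratio of the ILC1 gate over the NK gate in the control library (x axis) and in the MC38 library (y axis), from summed UMIs in CPM, for 96 of the 106 genes that passed edgeR's test; each point is a gene, and genes with no UMI in a gate are not drawn. The 59 genes higher and 37 lower in the ILC1 gate lie in opposite quadrants, so each gene's direction is the same in both libraries. Passing the test favours such agreement.

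Of the list of ILC1 genes, 11 of 23 tested members were higher in the ILC1 gate, none was lower, and the median log2 ratio was 2.58, against 0.00 over all genes tested. Tmem176b, a membrane protein of the MS4A-like family, stood at 264 CPM in control and 209 CPM in MC38 members against 5.32 and 23.3 CPM in the NK gate. Both libraries thus had far more Tmem176b in the ILC1 gate (log2 4.29, SE 0.52, edgeR adjusted p = 0.0218). Its neighbour Tmem176a stood at 269 and 150 CPM against 6.50 and 29.2 CPM (log2 3.81, SE 0.62, edgeR adjusted p = 0.0424). Without the MC38 cell rich in neutrophil RNA its log2 ratio was 3.79 and edgeR's adjusted p = 0.0589, so it no longer passed.

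These genes lie on opposite strands of chromosome 6, Tmem176a at chr6:48840919-48847071 (+) and Tmem176b at chr6:48833818-48841496 (−) in GRCm38, and their bodies overlap over 578 bases, where a read could belong to either unless strand was used in counting. A UMI of both was found in 34 of 79 control and 15 of 48 MC38 members, and neither in 29 and 18. Their promoters face each other: the RefSeq windows from 250 bases before to 50 after a start site (GRCm38.p6) overlap over 219 bases. Both are shown because the overlap holds a T-box half-site core, GTGTGA on either strand, which is marked in capitals and lies at the same bases of chromosome 6, 48841537 to 48841542. Further RefSeq start sites of both genes have windows without these letters.

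Tmem176a, chr6:48841406-48841705 (+): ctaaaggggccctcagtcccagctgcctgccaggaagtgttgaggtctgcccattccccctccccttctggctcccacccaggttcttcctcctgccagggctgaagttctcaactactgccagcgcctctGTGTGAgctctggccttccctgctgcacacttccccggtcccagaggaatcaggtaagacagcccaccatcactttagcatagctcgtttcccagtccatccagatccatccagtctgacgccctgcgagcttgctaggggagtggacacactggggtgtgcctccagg

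Tmem176b, chr6:48841325-48841624 (−): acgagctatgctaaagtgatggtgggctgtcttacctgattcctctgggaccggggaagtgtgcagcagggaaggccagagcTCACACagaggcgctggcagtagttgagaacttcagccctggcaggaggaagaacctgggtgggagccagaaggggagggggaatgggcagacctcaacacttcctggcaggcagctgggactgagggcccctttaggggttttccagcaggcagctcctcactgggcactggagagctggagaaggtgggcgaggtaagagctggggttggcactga

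Counting only the first listed window of each gene, the letters GTGTGA or their reverse complement were in 14.4% of 27025 RefSeq promoter windows. They were in 11 of the windows of the 44 genes higher in the ILC1 gate that matched, and in 9 of those of the 32 lower genes that matched. The share was thus about as high on the NK side as on the ILC1 side. A match of letters describes the window and is no binding site. The first listed windows of Tmem176a and Tmem176b lack the letters, and the windows shown above are later ones. The share over all genes is therefore no background for the windows shown.

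The genes higher in the ILC1 gate included receptors of the cell membrane. Cd200r1, an inhibitory receptor for CD200 (chr16:44765736-44794978, + strand), stood at 88.8 and 81.7 CPM in control and MC38 members and at 3.54 and 3.50 CPM in NK-gate cells (log2 4.55, SE 0.39, edgeR adjusted p = 0.00771). Its family member Cd200r2 was higher as well (57.7 and 26.2 CPM against 0.591 and 1.17). Cd7, a lymphoid surface protein, was among the most abundant: 1765 and 1177 CPM against 180 and 186 (log2 2.98, SE 0.21, edgeR adjusted p = 0.00429). Cd160, a receptor of HVEM, stood at 579 and 265 CPM against 69.1 and 67.7, and Cd226 (DNAM-1), an activating receptor, at 158 and 180 CPM against 36.6 and 16.3. Of inhibitory receptors, 4 of 16 tested were higher and 4 lower; Klrc1 (NKG2A) stood at 369 and 255 CPM against 136 and 113, and Lag3 at 79.9 and 91.6 CPM against 4.13 and 16.3.

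Of death ligands and receptors, 2 of 6 tested were higher in the ILC1 gate. Tnfsf10, which encodes TRAIL (chr3:27317028-27342427, + strand), stood at 180 CPM in control and 81.7 CPM in MC38 members against 10.0 and 10.5 CPM in the NK gate (log2 3.73, SE 0.36, edgeR adjusted p = 0.0137). Tnfsf8, the ligand of CD30, stood at 71.0 and 39.2 CPM against 5.91 and 4.67. Fasl, the other classic death ligand of NK cells, was at nearly one level in all 4 sums: 111 and 121 CPM in members and 105 and 123 CPM in the NK gate.

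Among cytokines and chemokines, 1 of 8 tested passed, Ltb, a lymphotoxin chain, at 597 and 680 CPM against 80.3 and 186 (log2 2.37, SE 0.28, edgeR adjusted p = 0.0218). Xcl1, the chemokine that draws XCR1+ dendritic cells, stood at 1530 and 696 CPM against 219 and 298 and missed the threshold (log2 2.04, SE 0.37, edgeR adjusted p = 0.0674). It passed under 11 of the alternative settings, but not with DESeq2 or without the library block. Ifng stood at 140 and 68.7 CPM against 141 and 111 and Ccl5, the most abundant chemokine, at 10487 and 9129 CPM against 13864 and 13284; neither passed. Il7r, the interleukin-7 receptor chain, stood at 138 and 42.5 CPM against 7.68 and 19.8 (log2 2.92, SE 0.64, edgeR adjusted p = 0.115). It passed under 8 alternatives, again not with DESeq2 or without the block. For Xcl1 and Il7r alike, the passes include leaving out cycling cells, chosen after seeing the data, and no filter on low counts. Of chemokine receptors 2 of 9 were higher: Cxcr3 (220 and 114 CPM against 31.9 and 32.7) and Gpr34, a lysophosphatidylserine receptor grouped with them in the list (26.6 and 52.3 CPM against 0.591 and 2.33).

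Granule genes divided between the gates: 3 of 12 tested were higher in the ILC1 gate and 2 lower. Gzmc, a granzyme of the cluster on chromosome 14 (chr14:56231441-56234656, − strand), stood at 895 CPM in control and 2125 CPM in MC38 members against 4.72 and 46.7 CPM in NK-gate cells (log2 6.20, SE 0.43, edgeR adjusted p = 0.00429). Gzmb stood at 1607 and 2083 CPM against 714 and 585 and Srgn, the proteoglycan that packs granules, at 892 and 1105 CPM against 435 and 606. Prf1 (perforin) went the other way, at 59.9 and 108 CPM against 276 and 270 (log2 −1.77, SE 0.26, edgeR adjusted p = 0.0342), as did Serpinb9, the granzyme B inhibitor, at 107 and 177 CPM against 315 and 377. Gzmc was also abundant in the 11 control cells of the double gate, at 16154 CPM, and with Cxcr6- or Itga1-positive cells allowed into the NK gate the log2 difference was 2.2 and did not pass (edgeR adjusted p = 0.0562).

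Gzma, the granzyme typical of NK cells (chr13:113093825-113100981, − strand), was the granule gene on which the libraries parted. In control members it stood at 1896 CPM against 11424 in the NK gate, 6.03-fold lower, while in MC38 members it stood at 10621 CPM against 9232, 1.15-fold higher. Over both libraries it did not pass (log2 −1.20, SE 0.60, edgeR adjusted p = 0.561), but it did under 3 alternatives, with cycling cells left out (edgeR adjusted p = 0.0184), thinned (edgeR adjusted p = 0.0117) and with no filter on low counts.

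The promoter windows of Gzmc and Gzma are shown as the 2 granzymes that set members apart from NK cells or the libraries from each other. Capitals mark the Runx core TGTGGT on either strand, with 2 matches for Gzmc and 1 for Gzma.

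Gzmc, chr14:56234608-56234907 (−): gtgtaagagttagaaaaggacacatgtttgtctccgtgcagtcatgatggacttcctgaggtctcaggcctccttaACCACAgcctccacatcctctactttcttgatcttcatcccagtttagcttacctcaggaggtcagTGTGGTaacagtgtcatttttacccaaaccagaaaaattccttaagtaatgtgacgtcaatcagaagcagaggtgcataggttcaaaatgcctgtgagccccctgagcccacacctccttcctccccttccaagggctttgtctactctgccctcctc

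Gzma, chr13:113100932-113101231 (−): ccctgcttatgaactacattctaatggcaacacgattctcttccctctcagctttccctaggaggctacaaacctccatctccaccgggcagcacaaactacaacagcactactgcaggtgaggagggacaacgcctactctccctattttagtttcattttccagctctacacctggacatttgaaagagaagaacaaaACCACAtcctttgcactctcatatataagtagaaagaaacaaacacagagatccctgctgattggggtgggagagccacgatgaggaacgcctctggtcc

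Again counting the first listed window of each gene, these letters were in 16.9% of all genes' windows, 20.5% of the matched higher genes' and 21.9% of the matched lower genes'. Gzma and Gzmc thus both hold letters that are about as frequent on the ILC1 side as on the NK side.

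Of 28 transcription factors of lymphocytes, 2 were higher and 3 lower in the ILC1 gate. Higher were Bcl11b, known from T cells and ILC2s (73.3 and 75.2 CPM against 7.09 and 2.33, log2 3.81, edgeR adjusted p = 0.0218), and Maf (149 and 52.3 CPM against 35.4 and 21.0). Lower were Klf2, which drives genes of lymphocyte egress (113 and 65.4 CPM against 956 and 567, log2 −3.10, SE 0.19, edgeR adjusted p = 0.00429), Zeb2, a factor of NK cell maturation (48.8 CPM in control members against 562, log2 −3.20 over both libraries, SE 0.27), and Irf8 (109 and 284 CPM against 703 and 1077). Tbx21 (T-bet), which both kinds of cell need, stood at 115 and 199 CPM against 175 and 163 and did not pass (log2 −0.18, SE 0.25, edgeR adjusted p = 0.884). Id2, Runx3, Tcf7 and Ikzf2 did not pass either. Rbpj, the nuclear factor of Notch signalling, from outside that list, was higher at 124 and 245 CPM against 15.9 and 49.0.

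The genes lower in the ILC1 gate included genes of conventional NK cells. Of 24 tested genes on the list of conventional NK genes, 13 were lower in the ILC1 gate, none was higher and the median was −2.44. S1pr5, the sphingosine phosphate receptor by which NK cells leave tissues, had no UMI in control members and 1 in MC38 members (3.27 CPM), against 142 and 67.7 CPM (edgeR adjusted p = 0.0199). Itgam (CD11b) stood at 22.2 and 6.54 CPM against 198 and 99.2, and Itga2 (CD49b), the integrin used in sorting to tell NK cells from ILC1s, at 11.1 and 6.54 CPM against 62.0 and 47.9. At the 10% mitochondrial limit Itga2 missed the threshold (edgeR adjusted p = 0.0573). Of 22 genes of adhesion and residence, 6 were lower and none higher.

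Klra7 (22.2 and 6.54 CPM against 458 and 340) and Klra1 (0 and 9.81 CPM against 148 and 124) were lower too, but the Klra genes are near-identical copies, reads of which counting can assign to the wrong member, and 2 of them are in the rule. The signalling genes Il18rap (153 and 137 CPM against 468 and 405), Cd247 (37.7 and 19.6 against 124 and 92.2) and Sh2d1a (17.8 and 29.4 against 178 and 146) were lower in members, as were Cma1 and the germ-cell-like gene Khdc1a (2.22 and 0 CPM against 67.9 and 82.9). The lists of TGF-beta targets, interferon response, MHC, NF-kB, heat shock, glycolysis and cell cycle genes had no member that passed edgeR's test in either direction.

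Genes less often named for ILC1s also passed, by the rule on size and detection. Podnl1, a proteoglycan-like matrix protein, stood at 113 and 65.4 CPM against 2.95 and 1.17, and Asb2, a ubiquitin ligase subunit, at 175 and 94.8 CPM against 4.72 and 4.67 (log2 4.89, SE 0.34, edgeR adjusted p = 0.00429). The kallikrein Klk8 stood at 107 and 98.1 CPM (log2 4.08 over the NK gate, SE 0.33), the lipid phosphatase Inpp4b at 151 and 108 CPM against 2.95 and 12.8, and S100a4 at 1301 and 1135 CPM against 136 and 193. All of them had clearly separate levels in the gates of both libraries.

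**Figure D2:**
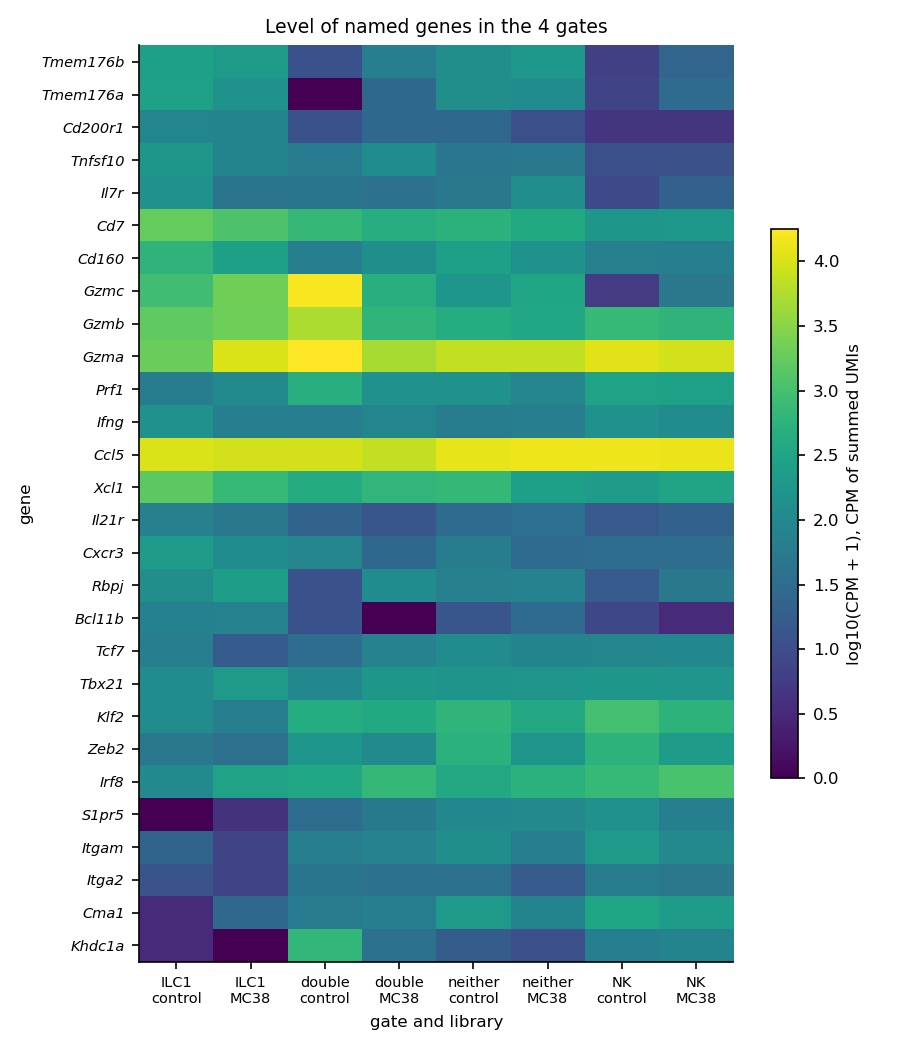
Level of 28 genes, as log10 of CPM + 1 from summed UMIs (colour), in the 4 gates of the control and MC38 libraries (columns). The ILC1 gate shares high Tmem176b, Cd200r1 and Tnfsf10 and low Klf2 and S1pr5 in both libraries, whereas Gzma is at 1896 CPM in control and 10621 CPM in MC38 members.

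The members varied among themselves. Per cell, Gzma had its lower quartile and median at 0, its upper quartile at 1371 and its highest value at 26525 CPM in control members, and in MC38 members a median of 5789, an upper quartile of 14782 and a highest value of 36674 CPM. It had a UMI in 27 of 79 control and 32 of 48 MC38 members. A group of members without Gzma thus existed in both libraries and was the larger one in control. Gzmc had a UMI in 29 control members, with a highest value of 9787 CPM, and in 24 MC38 members, with a highest value of 13876 CPM.

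The cells with each of the 2 granzymes overlapped in part: 12 control members had both, 15 Gzma without Gzmc, 17 Gzmc without Gzma and 35 neither, and in MC38 members the counts were 12, 20, 12 and 4. Gzma and Il7r were found together in 6 control members, where 21 had Gzma alone and 24 Il7r alone, and in 3 MC38 members, where 29 had Gzma alone and 4 Il7r alone. Of the 32 MC38 members with Gzma, 16 also had Klrg1, an inhibitory receptor of mature NK cells, and of the 16 without, 3 had it. Of those 32, 23 had Itga1, and of the 16 without Gzma, 5 did. In control members, 12 had both Gzma and Itga1, 15 Gzma alone, 23 Itga1 alone and 29 neither. Itga1 was thus about as frequent with Gzma as without it in that library. For Gzma and Klrg1 the control counts were 3, 24, 1 and 51. A UMI not found in a cell can be a matter of depth, and no test was made on cells.

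Gzma also differed by which gene took a cell into the rule. In control members it stood at 2020 CPM in cells with Cxcr6 alone, 4821 CPM in the 5 with Itga1 alone and 1191 CPM in cells with both. In MC38 members the values were 11215, 14536 and 6917 CPM, so that each of the 3 kinds was higher in the MC38 library.

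**Figure D3:**
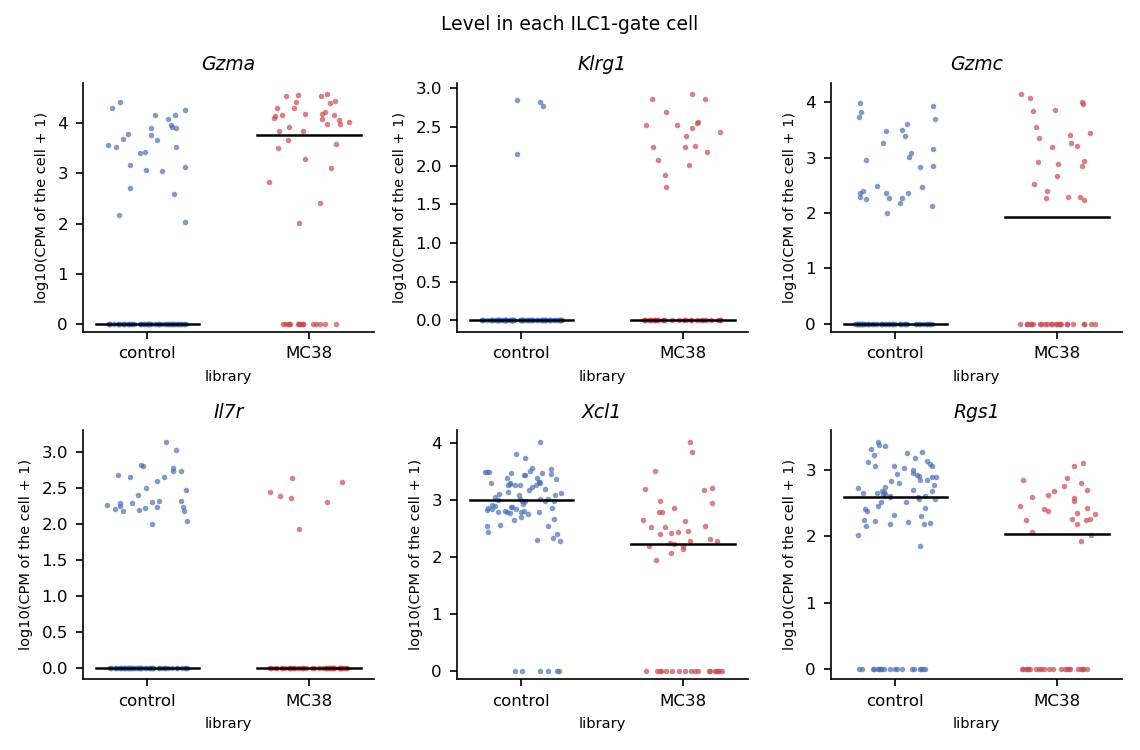
Level, as log10 of CPM + 1 (y axes), of Gzma, Klrg1, Gzmc, Il7r, Xcl1 and Rgs1 in each member of the control and MC38 libraries; each point is a cell and the line is the median. Gzma has a median of 0 in control and 5789 CPM in MC38 members, and Xcl1 a median of 976 and 169 CPM.

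The share of members among kept cells was lower in the MC38 library: 0.977% (exact binomial 95% interval 0.774 to 1.22) of control and 0.277% (0.204 to 0.367) of MC38 cells, which is 3.53-fold lower (log2 −1.82, interval −2.37 to −1.28). The NK gate was lower alongside, at 4.28% and 0.992%. Hepatocyte-rich barcodes made up 0.532% and 7.57% of kept cells. Without them and the erythroid-rich ones, members made up 0.986% and 0.303%. Shares say how often a cell type was captured, and a lower share of one type cannot be told apart from more cells of other types.

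Among cells of the 4 gates, members made up 16.1% (13.0 to 19.6) in control and 16.6% (12.5 to 21.3) in MC38, a log2 ratio of 0.04 with an interval of −0.51 to 0.58. The NK gate made up 70.5% and 59.3%, and the neither gate 11.2% and 19.3% (log2 0.79, 0.22 to 1.35). This share leaned on the mitochondrial limit: at 10% members made up 9.96% and 16.0%, and with no limit 21.4% and 16.9%. The limit bears more on the members than on NK cells in the control library, where 64.6% of members and 36.4% of NK-gate cells lay above 10%; what the mitochondrial share did to the ratio was not tested beyond these values.

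**Figure D4:**
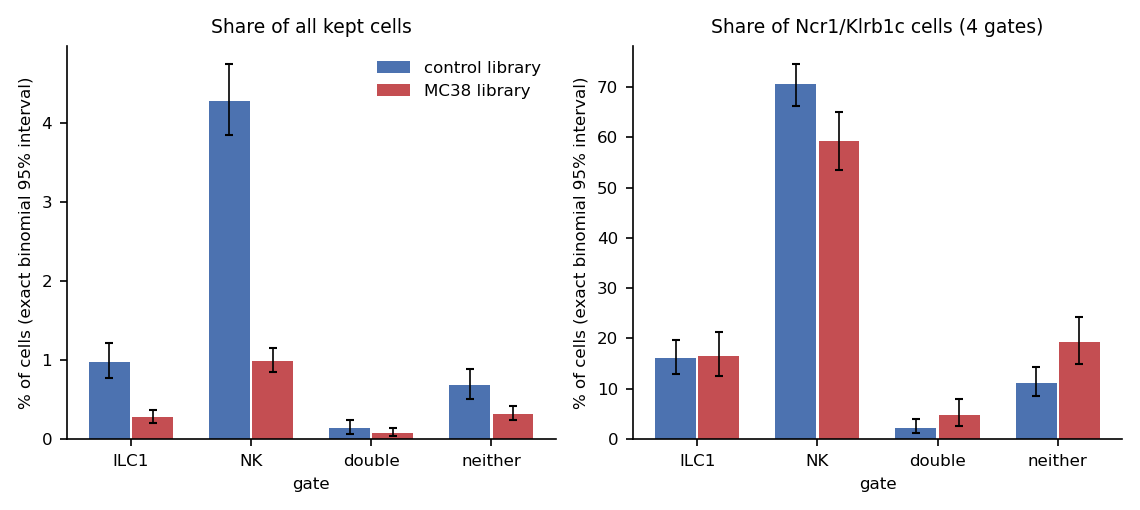
Share of each gate among all kept cells (left) and among the cells of the 4 gates (right) in the control and MC38 libraries, in percent; bars are shares and error bars exact binomial 95% intervals. The ILC1 gate is at 0.977% and 0.277% of kept cells but at 16.1% and 16.6% of the 4 gates.

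Gene levels in members of the 2 libraries were compared over 5006 genes with at least 20 UMIs in both libraries together. A gene was counted as higher or lower where it differed at least 2-fold and its exact 95% interval left out a ratio of 1. By this count 258 genes were higher (5.15%) and 205 lower (4.10%) in MC38 members. The counts for gene lists below are to be read beside these shares, from which a short list can hold a few such genes. The median log2 ratio over the 782 genes that reached 50 UMIs in both libraries was 0.14, and scaled to it 187 were higher and 301 lower. At a mitochondrial limit of 10%, which leaves 28 control and 36 MC38 members, 172 were higher and 159 lower, of which 116 and 71 were among the first counts.

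Several markers of other cells moved with the libraries. The summed hepatocyte markers stood at 306 CPM in control and 1442 CPM in MC38 members, with 7 of 8 tested higher (Fabp1 24.4 and 294 CPM, Trf 57.7 and 497 CPM). In B cells, which do not make them, Fabp1 stood at 54.4 and 725 CPM, so the members' level was below that in B cells. Monocyte or macrophage markers summed to 468 and 896 CPM, conventional dendritic cell markers to 1110 and 595, T cell markers to 1474 and 925, and B cell markers to 262 and 118. Neutrophil markers summed to 2.22 and 1792 CPM, nearly all from the single MC38 cell with S100a9. Their part in the results below was not tested, except where a value without those cells is given.

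**Figure D5:**
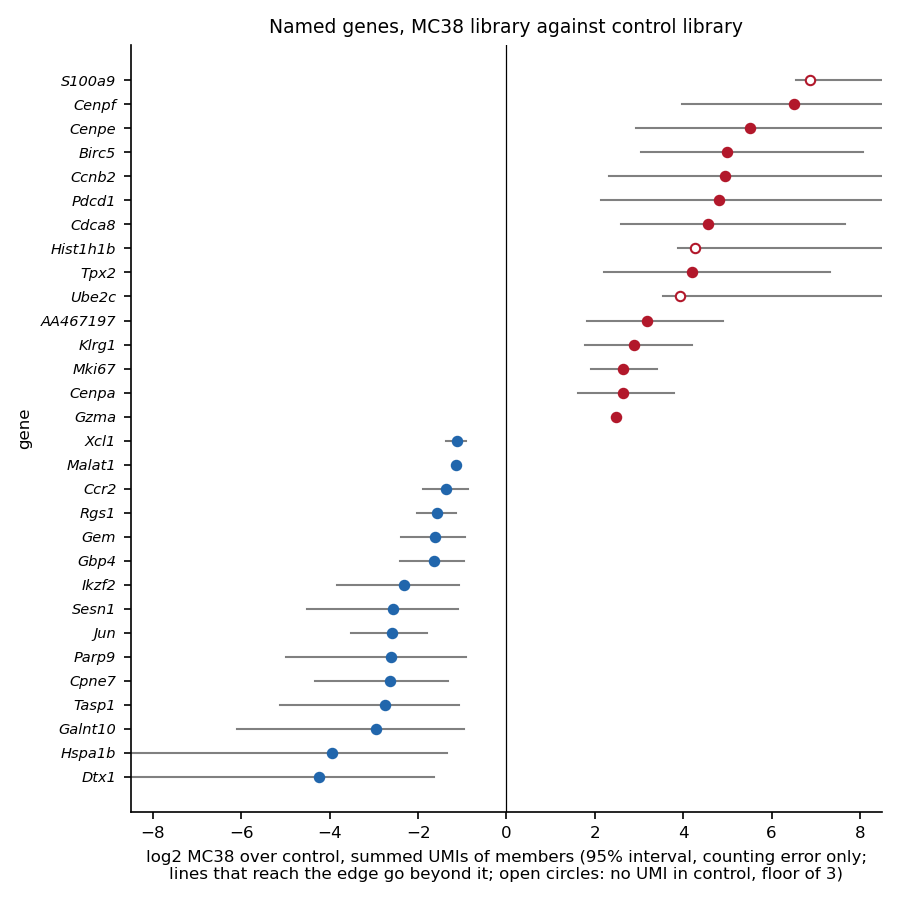
Log2 ratio of MC38 over control members for the 15 named genes in each direction (points) with exact 95% intervals for counting error (lines); lines that reach the edge go beyond it, and open circles had no UMI in control and are drawn at a floor of 3 UMIs. Of the higher genes, Gzma has the narrowest interval, 2.38 to 2.60, and many of the others are cell cycle genes.

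Of granule genes, 3 of 13 tested were higher in MC38 members and none lower, with a median of 0.37 against 0.03 over all genes tested; 12 of the 13 lay above 0. Gzma had 854 UMIs in 27 control and 3248 UMIs in 32 MC38 members, 1896 and 10621 CPM, 5.60-fold higher (log2 2.49, interval 2.38 to 2.60). In NK-gate cells of the same libraries it stood at 11424 and 9232 CPM, so its direction there was opposite. At the 10% mitochondrial limit Gzma had a UMI in 9 of 28 control and 25 of 36 MC38 members, and over all alternatives its log2 ratio lay between 2.03 and 2.73. Thinned to 1000 UMIs per cell, Gzma was found in 25.6% and 64.6% of members, in 96.5% and 92.3% of NK-gate cells and in 1.18% and 0.744% of B cells, so the level in B cells was far below that in members.

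Gzmc had 403 UMIs in 29 control and 650 in 24 MC38 members (log2 1.25, interval 1.07 to 1.43). Gzmf, of the same cluster, had no UMI in control members and 24 UMIs in 2 MC38 cells, 23 of them in a single cell. Gzmb was at 1607 and 2083 CPM (log2 0.37, interval 0.22 to 0.53) and at the mean of cells its ratio was 0.02. Prf1 stood at 59.9 and 108 CPM.

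Genes of conventional NK cells ran somewhat the same way: 4 of 14 tested were higher and none lower, with a median of 0.81. With at least 50 UMIs 2 were higher, and thinned to 1000 UMIs 1 was. The list summed to 4198 CPM in control and 14123 CPM in MC38 members, beside 1896 and 10621 CPM for Gzma alone. Klrg1 had 8 UMIs in 4 of 79 control members and 40 UMIs in 19 of 48 MC38 members, 17.8 and 131 CPM (log2 2.88, interval 1.77 to 4.19). The share of cells with Klrg1 was 5.06% (exact interval 1.40 to 12.5) and 39.6% (25.8 to 54.7). Irf8 stood at 109 and 284 CPM (log2 1.39, interval 0.87 to 1.92), against 703 and 1077 CPM in NK cells. Klra3 had 5 and 15 UMIs. Other genes that mark NK cells were low in MC38 members, with Itgam at 6.54 CPM and S1pr5 at 3.27 CPM.

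ILC1 genes ran the other way, with 6 of 22 tested lower, 1 higher and a median of −0.69. Il7r had 62 UMIs in 30 control and 13 UMIs in 7 MC38 members, 138 and 42.5 CPM (log2 −1.70, interval −2.68 to −0.82), and was found in 38.0% (27.3 to 49.6) and 14.6% (6.07 to 27.8) of cells. Tnfsf10 had 81 UMIs in 45 and 25 UMIs in 19 cells (log2 −1.14, interval −1.85 to −0.47), and Cd160 stood at 579 and 265 CPM (log2 −1.13, interval −1.51 to −0.76). Others of the list had intervals that include 0: Tmem176b (264 and 209 CPM, log2 −0.34, interval −0.80 to 0.11), Cd200r1 (88.8 and 81.7 CPM) and Ltb (597 and 680 CPM, log2 0.19, interval −0.08 to 0.45). An interval that includes 0 does not show equal levels.

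Of cytokines and chemokines, 2 of 8 tested were lower and none higher, beside 4.10% lower and 5.15% higher of all genes tested. Xcl1 had 689 UMIs in 73 of 79 control members and 213 UMIs in 30 of 48 MC38 members, of which 87 were in a single cell (log2 −1.13, interval −1.36 to −0.91). Per cell its median was 976 CPM in control and 169 CPM in MC38, and the ranges of both libraries overlapped throughout, to 10441 and 10318 CPM. In NK-gate cells Xcl1 stood at 219 and 298 CPM. Ifng stood at 140 and 68.7 CPM (log2 −1.03, interval −1.81 to −0.29), but thinned to 1000 UMIs its ratio was 0.02. Fasl stood at 111 and 121 CPM (log2 0.12, interval −0.53 to 0.77).

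Among transcription factors, 5 of 24 tested were lower in MC38 members and Irf8 was higher; at the 10% mitochondrial limit 1 was lower. Tcf7, a factor of early lymphoid cells, had 29 UMIs in 22 control and 5 UMIs in 2 MC38 members (log2 −1.98, interval −3.70 to −0.59). Ikzf2 (Helios) stood at 97.7 and 19.6 CPM (log2 −2.32, interval −3.84 to −1.08), Tox at 129 and 49.0 CPM, Maf at 149 and 52.3 CPM and Id3 at 51.1 and 9.81 CPM. In NK-gate cells Tcf7 stood at 85.0 and 95.7 CPM and Id3 at 8.86 and 33.8 CPM. Tbx21 stood at 115 and 199 CPM and Runx3 at 222 and 235 CPM.

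Inhibitory receptors had 3 members higher and 2 lower of 13 tested, and activating receptors 1 lower of 19. Over all genes tested 5.15% were higher and 4.10% lower, so the count of activating receptors was near the share of all genes. Of inhibitory receptors 1 was higher at the 10% mitochondrial limit, without called doublets or without cycling cells, and 0 when thinned or with at least 50 UMIs. Pdcd1 (PD-1) had 1 UMI in control members and 19 UMIs in 6 MC38 members (log2 4.81, interval 2.15 to 10.18); at the 10% mitochondrial limit control members had no UMI, and against a floor of 3 UMIs the log2 ratio was at least 1.94. Cd27, a costimulatory receptor of less mature NK cells, stood at 151 and 49.0 CPM (log2 −1.62, interval −2.54 to −0.80) in members and at 93.3 and 105 CPM in NK-gate cells. Havcr2, Ctla4 and Tigit had at most 2 UMIs in either library, too few to compare.

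Genes of residence and migration included 2 of 16 lower, beside 4.10% of all genes tested. Rgs1, which dampens chemokine receptor signals in resident lymphocytes, stood at 555 CPM in 60 control cells and 186 CPM in 26 MC38 cells (log2 −1.57, interval −2.02 to −1.15), and in NK-gate cells it differed by 0.13. Ccr2, a receptor of inflammatory chemokines, stood at 346 and 134 CPM (log2 −1.37), and Cxcr3 at 220 and 114 CPM. Itga4, an integrin chain abundant in NK cells, was at 73.3 and 144 CPM.

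Interferon genes leaned one way. Of type I response genes 3 of 11 were lower and none lay above 0 (median −0.98). Of interferon gamma response genes 5 of 16 were lower and none lay above 0 (median −0.62). Over all genes tested 4.10% were lower. Thinned to 1000 UMIs the 2 counts were 0 and 1, and with at least 50 UMIs 1 and 3. The lean was not particular to interferon genes: 14 of 15 MHC class I genes and 13 of 14 NF-kB response genes lay below 0, with 1 and 0 counted as lower. Gbp4, an interferon-induced GTPase, had 97 UMIs in 48 control and 21 UMIs in 14 MC38 members (log2 −1.65, interval −2.40 to −0.96), against 98.6 and 81.7 CPM in NK-gate cells. Cxcl10 had 24 UMIs in 4 control cells. MHC class II genes summed to 1112 and 540 CPM with 3 of 5 lower, but a single control cell held 184 of the 251 Cd74 UMIs, and at the 10% mitochondrial limit or by the mean of cells none of the 5 was lower.

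Early response genes included 3 of 14 lower and 1 higher, beside 4.10% lower and 5.15% higher of all genes tested. Jun, a component of AP-1, stood at 277 CPM in control and 45.8 CPM in MC38 members (log2 −2.60, interval −3.51 to −1.80), while in NK-gate cells it was higher by 0.37. Dusp2 was higher (111 and 304 CPM). The heat shock gene Hspa1b had 23 UMIs in 9 control cells and 1 UMI in MC38 members, and 13 of 19 chaperone genes lay above 0 (Hspa8 1072 and 1556 CPM). Malat1, a nuclear RNA often raised in damaged cells, stood at 24725 and 11258 CPM (log2 −1.14), and the list of dying or broken cell markers, most of it mitochondrial, at 134251 and 74648 CPM. The part of the mitochondrial share in these values was not tested beyond the 10% limit, at which Malat1 had a log2 ratio of −1.20.

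Glycolysis and hypoxia genes had 3 of 16 higher, 2 lower and a median of 0.72. Ldha stood at 204 and 507 CPM (log2 1.31, interval 0.93 to 1.70), Tpi1 at 88.8 and 199 CPM and Gapdh at 539 and 958 CPM, and Gapdh in NK-gate cells at 547 and 862 CPM. Odc1, the first enzyme of polyamine synthesis, stood at 55.5 and 180 CPM. The metallothionein Mt1 stood at 15.5 and 598 CPM (38.5-fold) and Mt2 at 2.22 and 128 CPM. In NK-gate cells Mt1 stood at 6.50 and 796 CPM and in B cells at 6.48 and 953 CPM, so the members' level in the MC38 library did not exceed the level in B cells.

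Cell cycle genes were the list with most members higher, 12 of 19, with none lower and a median of 1.41. Cenpf, of the kinetochore, had 1 UMI in control members and 62 UMIs in 5 MC38 cells, 43 of them in a single cell. Mki67 had 20 UMIs in 5 control and 84 UMIs in 7 MC38 cells, 44.4 and 275 CPM. Members with at least 5 UMIs of mitotic genes numbered 3 of 79 in control (3.80%, exact interval 0.790 to 10.7) and 7 of 48 in MC38 (14.6%, 6.07 to 27.8), while in the NK gate they made up 3.76% and 2.33%. Without these 3 and 7 cells, 1 gene of the list was counted as higher, a drop that follows from choosing the cells by genes of this kind. Gzma without them had a log2 ratio of 2.25.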

How the data were processed

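The deposited matrices hold whole UMI counts of 28692 genes for each barcode, per the file headers. Per the submitters' processing notes, bcl2fastq, Cell Ranger 2.2, STAR, Seurat 2.3.4, R 3.6.0 and GRCm38.p6 were used; the matrix header names software version 3.0.2. Counting settings, strand included, were not named in the labels or headers used here. The labels name a 5′ kit, and which end of the transcripts the counts come from was not checked.

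From these counts, gates were set and UMIs summed per library and gate with Python 3.11.15, numpy 2.4.6, scipy 1.17.1 and pandas 2.3.3. CPM are UMIs per 1000000 summed UMIs of a gate and library, in which 13 mitochondrial genes were included. Ratios have exact conditional 95% intervals and shares exact binomial ones. Both cover counting error only, as UMIs of 1 library are no replicates. A gene with no UMI in a library was set to a floor of 3 UMIs in medians and in single ratios, which are then bounds. The ILC1 and NK gates were compared with edgeR 4.0.16 in R 4.3.3 (TMM, filterByExpr, quasi-likelihood test, library block) and, as an alternative, DESeq2 1.42.0. An SE printed with an edgeR log2 ratio is the size of that ratio divided by the square root of the test's F value. The edgeR fit was also run on simulated sums, drawn independently with a set dispersion. These hold no selection by the rule's genes and no single outlying cells, so they do not show how reliable the fit is on these data. Doublets were called with scrublet (scanpy 1.11.5) and kept in the main values.

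Genes were named by rank of the interval end nearest 0, 15 per direction, with at least 50 CPM and detection in at least 10% of cells in the library where they were higher, and for the gates in both libraries. The 2 top and 2 bottom genes of every list, and all genes of the main lists, were eligible too. Other genes named were chosen after their values were seen. The members and lists were chosen with earlier results of these data known. Gene positions are from the annotation of GRCm38, and promoter sequences from RefSeq. Leaving out the cell with neutrophil RNA, leaving out cycling cells and dropping the mitochondrial limit were alternatives chosen after seeing the data.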

Additional observations from a re-analysis of the deposited data

Results flagged for a closer look

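Only the genes named by rank were looked at here, not all genes. For 13 of them the log2 ratio of the ILC1 gate over the NK gate had opposite signs in the MC38 and control libraries. The intervals for counting error left out 0 in both. Part of the named genes had been chosen for differing most between MC38 and control members, so such a change of sign was partly built in. The difference between the libraries was not tested, since each group has 1 library.

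Of the 13, 10 are cell cycle genes, above NK cells in MC38 members and below them in control members. Many of the genes named as higher in MC38 members were cell cycle genes to begin with. Their UMIs came from few cells: 7 MC38 members were counted as cycling, and 1 cell held 43 of the 62 Cenpf UMIs. The ratio was 2.53 in MC38 and −4.66 in control for Cenpf, 3.63 and −4.07 for Cenpe, 2.13 and −3.11 for Tpx2, and 2.16 and −2.92 for Cdca8. For Ccnb2 it was 1.71 and −3.38, for Birc5 1.70 and −3.79, for Mki67 1.36 and −1.81, and for Cenpa 1.23 and −1.07. Ube2c (1.27) and Hist1h1b (1.91) had no UMI in control members, where the intervals ended at −3.66 and −3.72.

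Gzma was at 0.20 in the MC38 library and −2.59 in the control library. Jun was at −1.80 in MC38 and 1.17 in control, and Malat1 at −0.49 and 0.14.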

How the results depend on the processing

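No paired analysis was possible because each group has 1 library; the gates, in contrast, were paired within libraries by the library block. Among kept cells, the log2 ratio of the members' share lay between −2.01 and −1.51 under the alternatives, except at −3.12 when cells were thinned to 1000 UMIs, which also removes UMIs of the excluded genes (133 of 7790 and 29 of 14739 cells). Within the 4 gates it lay between −0.34 and 0.10, except at 0.68 with a 10% mitochondrial limit.

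The counts of genes higher and lower in MC38 members were 33 and 36 of 874 tested when thinned, 80 and 85 with at least 50 UMIs, and 428 and 331 at a fold of 1.5. The ILC1 gate had more genes above and below the NK gate with a 30% mitochondrial limit (137 and 113), at least 500 genes per cell, which leaves out 1 control member (100 and 78), doublets removed (111 and 101), cycling cells left out (204 and 166), an NK gate open to Cxcr6 and Itga1 (157 and 143) and no filter on low counts (194 and 222). Higher genes numbered 41 when thinned, lower genes 72 with a 10% limit and 27 with DESeq2, against 62 and 44. Without the library block there were 11 and 4. These spreads come from a fit with 1 residual degree of freedom; their cause was not tested. Of the 62 and 44 genes, 41 and 24 were also called by DESeq2.

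Over 753 values of single genes between the libraries, 701 lay within the interval of the main value and 51 lay outside it, toward 0 or away from it. A change of sign was looked for only in genes counted as higher or lower, where 1 reversed, Ifng at 0.02 when thinned. Gzmb, not counted as either, changed sign to −0.07 when thinned. A further 17 gave no value, most of them cell cycle genes when thinned or without cycling cells, as a library had no UMI and a floor of 3 UMIs gave no direction; 67 values against a library with no UMI are bounds from that floor. Of 532 values between the gates, 481 kept their side of the threshold, 29 lost the call (21 without the block), 22 gained it and none reversed. Depth limits what 127 cells can show: genes under 20 UMIs were not compared.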

Other observations

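The few cells with genes of both sides, 11 in control and 14 in MC38, held less of 2 ILC1 genes than members: Tmem176b stood at 10.8 and 63.9 CPM and Cd200r1 at 10.8 and 25.6 CPM. Their granzymes were high in the control library, with Gzma at 17894 CPM, Gzmb at 5414 CPM and Gzmc at 16154 CPM, against 4944, 613 and 460 CPM in the MC38 library. The cells with no gene of either side lay between the gates in Tmem176b (126 and 181 CPM) and Klf2 (612 and 367 CPM). In other genes they did not: in the MC38 library Il7r stood at 121 CPM, above members (42.5) and NK-gate cells (19.8), and Gzma at 7369 CPM, below both (10621 and 9232).

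Among lists not described above, 1 of 14 tested genes of JAK-STAT signalling was higher in MC38 members, the kinase Jak3 (22.2 and 65.4 CPM), and 1 lower, Jak2 (99.9 and 39.2 CPM), and of 15 survival genes 1 was higher, the pore protein Bak1 (33.3 and 75.2 CPM). These shares are near the 5.15% and 4.10% of all genes counted as higher and lower. Of 8 glucocorticoid response genes 3 were higher, Ddit4 (22.2 and 65.4 CPM) and the metallothioneins Mt1 and Mt2, whose level in B cells was higher still. None of 14 NF-kB response genes was 2-fold higher or lower.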
